A study of Mus musculus with 11 samples.

Results

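The genes described here are the 3 peroxisome proliferator-activated receptors, Pparg, Ppara and Ppard, and the 3 retinoid X receptors they pair with, Rxra, Rxrb and Rxrg, in mouse 3T3-L1 cells given thiazolidinedione drugs. Every probe set that the array annotation pairs with 1 of these 6 genes alone was taken, which gave 7 probe sets, 2 of them for Rxra, out of 12422 probe sets and 8251 named genes. They were 97926_s_at for Pparg, 102668_at for Ppara, 94198_at for Ppard, 92234_at and 92235_g_at for Rxra, 102398_at for Rxrb and 92237_at for Rxrg. All 7 passed the filter on dim probe sets, as did 11739 of the 12422. 3T3-L1 cells are mouse fibroblasts that can be turned into fat cells in culture; whether that had been done here is not stated in the labels.

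Total RNA was measured on 11 one-colour oligonucleotide arrays, 1 array per sample, 24 h after treatment. The 3 vehicle arrays come from cells given 0.1% DMSO. Pioglitazone was given at 20 µM (2 arrays), rosiglitazone at 1 µM (3 arrays) and troglitazone at 20 µM (3 arrays). The labels do not say whether the drug-treated cells also received DMSO, nor whether replicates came from separate cultures, so p-values measure the spread between these samples, which may be technical. By their titles the arrays form 2 sets. Replicates 1 and 2 of each of the 4 groups make up set 1, with 8 arrays, and replicate 4, which pioglitazone lacks, makes up set 2, with 3 arrays.

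PPARs are nuclear receptors that bind fatty acids and related lipids, form heterodimers with an RXR and switch on genes at response elements made of a direct repeat of a receptor hexamer. PPARγ, the product of Pparg, drives fat cell formation and is the protein that thiazolidinediones bind and activate. PPARα governs fatty acid oxidation chiefly in liver, PPARδ (also called PPARβ) is widely expressed, and RXRs bind 9-cis retinoic acid and serve as shared partners for many other receptors. The mouse Pparg gene has separate start sites for its transcripts, among them those of PPARγ1 and of PPARγ2, the form characteristic of fat cells.

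The stretches in front of the annotated Pparg starts are shown because Pparg was the only one of the 6 genes to pass the test with any drug, and the signal cannot be split by start site, since the sources used here do not say which Pparg transcripts the probes match. The sequences are the 250 bases before each start in RefSeq, build GRCm38.p6, 5′ to 3′ on the plus strand of chromosome 6. They lie at chr6:115360894-115361143 (window 1), chr6:115362099-115362348 (window 2) and chr6:115421816-115422065 (window 3, in front of the PPARγ2 transcript). Capitals mark letter matches to 5 motifs searched on both strands: AGGTCA (the nuclear receptor hexamer), AGGTCANAGGTCA (the PPAR and RXR direct repeat, which contains the hexamer), TTNNGCAA (a C/EBP-type motif), TATAAA and GGGCGG (a GC box).
Pparg window 1: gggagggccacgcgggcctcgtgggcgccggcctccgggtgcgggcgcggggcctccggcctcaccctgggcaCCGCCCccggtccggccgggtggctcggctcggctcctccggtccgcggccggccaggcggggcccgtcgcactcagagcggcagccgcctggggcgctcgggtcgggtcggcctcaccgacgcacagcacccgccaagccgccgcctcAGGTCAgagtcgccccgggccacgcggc
Pparg window 2: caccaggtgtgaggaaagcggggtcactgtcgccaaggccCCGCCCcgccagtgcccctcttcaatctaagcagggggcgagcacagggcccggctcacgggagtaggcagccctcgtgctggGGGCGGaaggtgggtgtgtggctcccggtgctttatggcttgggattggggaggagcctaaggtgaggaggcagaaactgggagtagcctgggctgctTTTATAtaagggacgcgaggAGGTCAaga
Pparg window 3: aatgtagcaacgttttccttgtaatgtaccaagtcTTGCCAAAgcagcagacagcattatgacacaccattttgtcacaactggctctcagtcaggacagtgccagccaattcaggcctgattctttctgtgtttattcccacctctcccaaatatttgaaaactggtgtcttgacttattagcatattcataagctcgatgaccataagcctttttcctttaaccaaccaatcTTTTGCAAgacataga

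The Pparg windows differed in base composition and in the motifs they held. GC content was 82.4% in window 1, 63.6% in window 2 and 40.8% in window 3, with 38, 12 and 2 CpG pairs, against a median GC of 52.4% over the 32851 windows of this length in the table. Window 1 was richer in GC than 99.4% of all windows, and window 3 was richer than 13.3% of them. The starts behind windows 1 and 2 lie 1205 bases apart, and those behind windows 1 and 3 lie 60922 bases apart. The hexamer AGGTCA occurred 28 to 23 bases before the start in window 1 and 9 to 4 bases before it in window 2; 14% of all windows hold that hexamer on either strand. The C/EBP-type letters occurred in window 3 at 16 to 9 bases before the start and, on the minus strand, at 215 to 208 bases, and 9.56% of all windows hold them. Window 2 also held TATAAA on the minus strand at 29 to 24 bases, found in 12.4% of windows. GC boxes, found in 32.7% of windows, occurred in windows 1 and 2. The full direct repeat AGGTCANAGGTCA was in none of the 11 windows that the table holds for the 6 genes, and in 11 of all 32851 (0.0335%). Such a match is a description of letters, not a measured binding site or a cause.

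The arrays had been scaled alike, with a mean signal between 500.3 and 500.4 after trimming 2% at each end, and their median signals ran from 162.8 to 243.5. Signals below 73.7, which is the 25th percentile of all values and is called the floor here, were set to it, so a fall in a dim transcript can be seen only down to that level. The ratio of 3′ to 5′ beta-actin signal was 4.86 on pioglitazone replicate 2, 1.79 to 2.27 on the other set 1 arrays and 3.74 to 3.90 on the set 2 arrays. Rosiglitazone replicate 2 had the lowest median correlation with the other arrays (0.833). In the fit of limma, with Benjamini-Hochberg adjustment over 11739 probe sets, 106 probe sets passed an adjusted p of 0.05 with pioglitazone (69.8% of them higher), 159 with rosiglitazone and 156 with troglitazone. After quantile normalisation 49.4% of the pioglitazone calls were higher, and after median centring 86.9% were; with troglitazone the share was 58.3% and, after median centring, 70.1%. All 8 of the 10 listed adipocyte markers that were measured lay above the floor on every array. Vehicle means were 46880 for Adipoq, 23197 for Lpl and 2355 for Fabp4, but 497 for Cd36. Lying above the floor was not particular to fat cell markers. On every vehicle array 7 of 8 preadipocyte or fibroblast markers and 4 of 6 skeletal muscle markers did so too. Of the latter, Myog had a vehicle mean of 668 and Myod1 of 437.

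Pparg was lower with each of the 3 drugs, to between 25.3% and 38.1% of the vehicle mean of its set on every one of the 8 treated arrays. On the vehicle arrays its signal was 1931.3 and 1728.7 in set 1 and 2886.1 in set 2. With pioglitazone it was 462.2 and 511.4, both in set 1. All treated arrays lay below all vehicle arrays: the lowest vehicle signal, 1728.7, was 1.64 times the highest treated one, 1053.7. Such separation was seen in 1.97% of all probe sets tested. With rosiglitazone the signal was 697.9 and 665.0 in set 1 and 1053.7 in set 2, and with troglitazone it was 542.9 and 472.7 in set 1 and 737.9 in set 2. In every group that has a set 2 array, that array gave the highest Pparg signal.

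**Figure D1:**
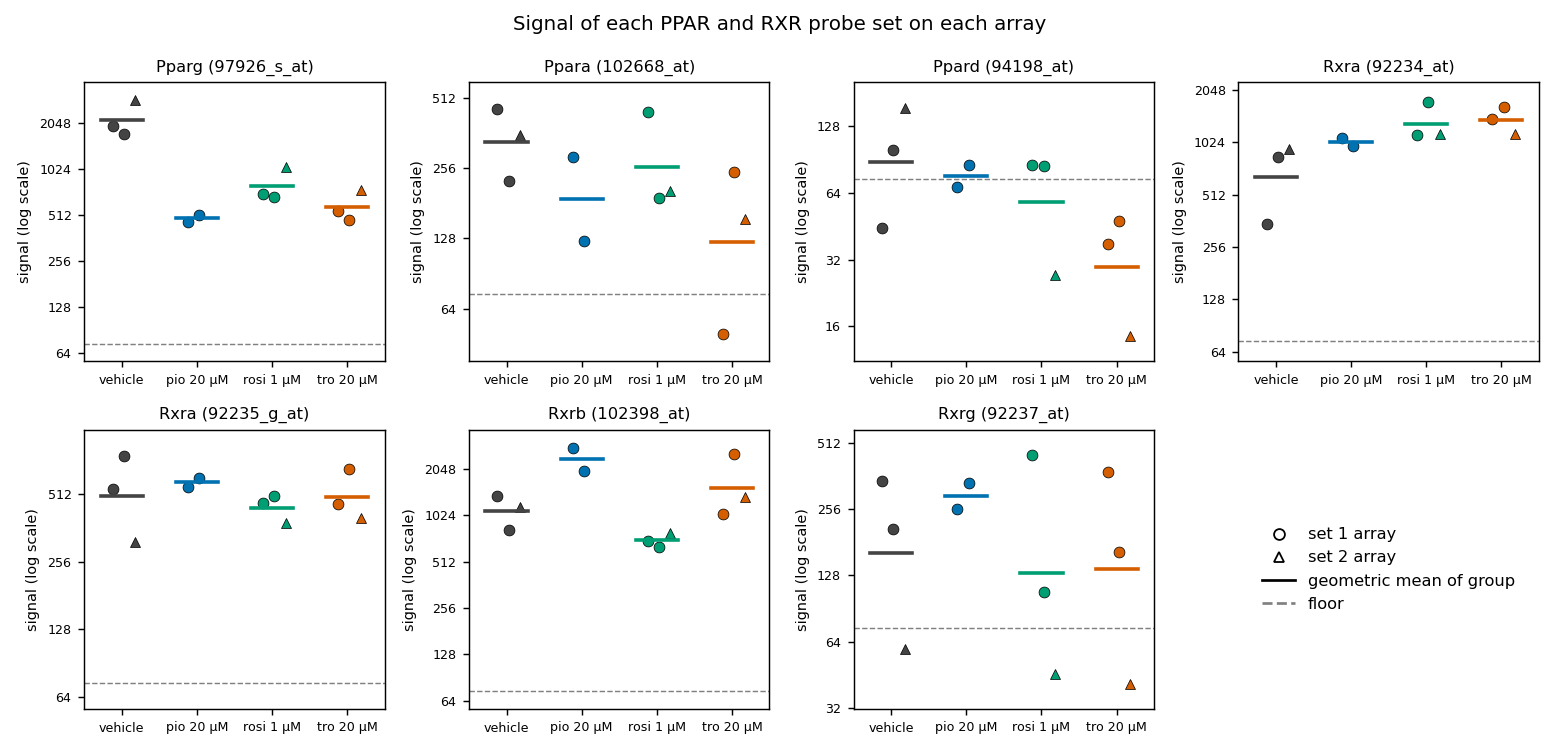
Signal of each of the 7 probe sets (log scale, arbitrary units) on each of the 11 arrays, by group, with circles for set 1, triangles for set 2, a bar at the geometric mean of the group and a dashed line at the floor of 73.7. The 8 treated arrays sit between 462.2 and 1053.7 for Pparg, below all 3 vehicle arrays, while the Rxrg signals part by set and not by group.

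Pparg fell 3.80-fold with pioglitazone, from 2182 ± 618 (SD, n = 3) to 486.8 ± 34.8 (n = 2), a log2 change of -1.93 ± 0.24 (SE; 95% interval -2.45 to -1.41; limma adjusted p = 0.000901). With rosiglitazone it fell 2.70-fold, to 805.5 ± 215.5 (n = 3), a log2 change of -1.43 ± 0.21 (95% interval -1.88 to -0.98; limma adjusted p = 0.00204). With troglitazone it fell 3.71-fold, to 584.5 ± 137.4 (n = 3), a log2 change of -1.89 ± 0.21 (95% interval -2.34 to -1.44; limma adjusted p = 0.000133). These folds and log2 changes come from the fit with its set term, while the means pool the sets. Pioglitazone has no set 2 array, so its 3.80-fold fall is not the ratio of 2182 to 486.8. The vehicle mean of set 1 was 1830. By size of fall Pparg was 4th of the 32 probe sets called lower with pioglitazone (0.273% of those tested), 18th of 67 with rosiglitazone (0.571%) and 7th of 65 with troglitazone (0.554%). It was among the 22 probe sets (0.187% of those tested) that were called lower with all 3 drugs, comparisons that share the same vehicle arrays.

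The fall in Pparg had nearly the same size in each set. In set 1 alone the log2 differences from vehicle were -1.91 with pioglitazone, -1.42 with rosiglitazone and -1.85 with troglitazone. In set 2, with 1 array a group, they were -1.45 with rosiglitazone and -1.97 with troglitazone. The set 2 effect minus the set 1 effect was -0.03 ± 0.43 for rosiglitazone and -0.12 ± 0.43 for troglitazone (SE, limma interaction). Neither was beyond that error, which is wide enough to hide a difference between the sets. Pparg kept its call with each drug in each of 11 fits that left out 1 array, and without pioglitazone replicate 2 and rosiglitazone replicate 2 together the changes were -2.0, -1.41 and -1.89. The rosiglitazone call did not hold in set 1 alone (adjusted p = 0.119), without the set term (0.0503) or without the intensity trend in limma's variance (0.0713), and the pioglitazone call did not hold in a fit of only those 5 arrays (0.408).

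Troglitazone and pioglitazone were the only pair of drugs given at a matched dose, 20 µM. Both carry the thiazolidinedione head; troglitazone bears a chromanol group like that of vitamin E, and pioglitazone a substituted pyridine. Pparg did not differ between them beyond its error. Troglitazone minus pioglitazone was 0.04 ± 0.24 on the log2 scale, a ratio with a 95% interval of 0.716 to 1.47 (limma adjusted p = 0.996). Differences inside that interval are compatible with these values, and it is not a limit of detection. Larger differences also went uncalled for this pair, such as Cebpd, 3.73-fold higher with troglitazone (limma adjusted p = 0.278). In set 1 the troglitazone signals, 542.9 and 472.7, and the pioglitazone signals, 462.2 and 511.4, overlapped. Of the 7 probe sets of the 6 genes none passed for this pair (4 of 11739 did, 0.0341%), and none reached an unadjusted p of 0.05 (6.35% of all probe sets did). Rosiglitazone was given at 1 µM, a lower dose, and set 1 gave 697.9 and 665.0 for Pparg, above the 4 signals of the other drugs; as doses differ, no test was made. Over all arrays of each group, the order of the means was vehicle, rosiglitazone, troglitazone, pioglitazone, from high to low. Pioglitazone has no set 2 array, and in set 1 alone the troglitazone and pioglitazone means were 507.8 and 486.8.

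Ppara, the fatty acid oxidation receptor, varied widely between replicates. Its vehicle signals were 457.9 and 224.6 in set 1 and 354.8 in set 2. With pioglitazone they were 285.5 and 125.2. With rosiglitazone they were 445.9, 190.6 and, in set 2, 204.5. With troglitazone they were 49.7, 245.5 and, in set 2, 154.9, the first of them under the floor. Each drug group overlapped the vehicle group, and in every group replicates of set 1 lay far apart. The log2 changes were -0.83 ± 0.73 with pioglitazone (limma adjusted p = 0.797), -0.36 ± 0.63 with rosiglitazone (0.890) and -1.23 ± 0.63 with troglitazone (0.664). The 95% interval for troglitazone ran from -2.58 to 0.12, an interval that holds no change as well as a fall larger than that estimated for Pparg. Troglitazone minus vehicle was -1.25 in set 1 and -1.20 in set 2.

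Ppard, the widely expressed receptor, was near or under the floor throughout: only 5 of 11 arrays lay above 73.7. The vehicle signals were 44.5 and 99.7 in set 1 and 155.3 in set 2. They were 67.8 and 85.5 with pioglitazone and 85.8, 84.3 and, in set 2, 27.2 with rosiglitazone. The troglitazone signals were 37.5, 47.7 and, in set 2, 14.5, none of them above the floor. The log2 changes over the floor were -0.32 ± 0.32 with pioglitazone, -0.37 ± 0.27 with rosiglitazone and -0.50 ± 0.27 with troglitazone, with limma adjusted p-values of 0.831, 0.686 and 0.696. By set, rosiglitazone minus vehicle was -0.0114 in set 1 and -1.08 in set 2 (difference -1.06, unadjusted p = 0.051, limma adjusted p = 1), and troglitazone minus vehicle was -0.22 and -1.08 (difference -0.86, unadjusted p = 0.103, limma adjusted p = 1). With the floor at the 10th percentile the troglitazone change was -1.19 (limma adjusted p = 0.646). For a probe set this dim a fall would be hidden by the floor, so these values give no firm level.

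Rxra encodes RXRα, an RXR that pairs with PPARγ in fat cells, and its 2 probe sets, both annotated to the same source sequence, did not behave alike. For probe set 92234_at the vehicle signals were 345.3 and 837.2 in set 1 and 935.3 in set 2. They were 1077.0 and 971.7 with pioglitazone, 1118.4, 1734.6 and (set 2) 1137.8 with rosiglitazone, and 1394.1, 1631.2 and (set 2) 1141.5 with troglitazone. Every treated array lay above every vehicle array, though by little, 971.7 against 935.3, and 1.38% of all probe sets showed that order. None of these differences passed the test. The log2 changes were 0.67 ± 0.38 with pioglitazone (limma adjusted p = 0.612), 1.01 ± 0.33 with rosiglitazone (95% interval 0.31 to 1.71; unadjusted p = 0.00791, limma adjusted p = 0.221) and 1.09 ± 0.33 with troglitazone (95% interval 0.39 to 1.79; unadjusted p = 0.00488, limma adjusted p = 0.190).

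Much of the distance in 92234_at came with vehicle replicate 1, whose 345.3 was the lowest Rxra signal of that probe set. Without that array the log2 changes were 0.10 with pioglitazone, 0.52 with rosiglitazone and 0.60 with troglitazone. By set, the change was 1.37 with rosiglitazone and 1.49 with troglitazone in set 1, and 0.28 and 0.29 in set 2. The difference between sets, -1.09 and -1.20, was not beyond error (unadjusted p = 0.159 and 0.125; limma adjusted p = 1 for each).

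The other Rxra probe set, 92235_g_at, lay between 312.7 and 761.6 on all arrays and its groups overlapped in every comparison. Its vehicle signals were 543.6, 761.6 and (set 2) 312.7, and its pioglitazone signals 554.2 and 605.1. The rosiglitazone signals were 466.6, 501.2 and (set 2) 381.3, and those of troglitazone 464.1, 661.1 and (set 2) 401.8. The set 2 array was the lowest of each group. The log2 changes were -0.01 ± 0.37, -0.18 ± 0.32 and -0.02 ± 0.32 for pioglitazone, rosiglitazone and troglitazone (limma adjusted p = 0.996, 0.889 and 1). Their signs turned with the scaling: after median centring the pioglitazone value was 0.17 and the troglitazone value 0.0872, and after quantile normalisation they were 0.0936 and 0.00186.

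The ratio of 92234_at to 92235_g_at on the same array, in which the array's scale cancels, showed the same split. In vehicle it was 0.635 and 1.10 in set 1 and 2.99 in set 2. It was 1.94 and 1.61 with pioglitazone, 2.40, 3.46 and (set 2) 2.98 with rosiglitazone, and 3.00, 2.47 and (set 2) 2.84 with troglitazone. In set 1 every treated array exceeded both vehicle arrays, while in set 2 the 3 arrays were alike. The group means were 1.58 ± 1.25 (SD, n = 3), 1.77 ± 0.24 (n = 2), 2.95 ± 0.53 (n = 3) and 2.77 ± 0.28 (n = 3) for vehicle, pioglitazone, rosiglitazone and troglitazone. The ratio was not tested. In set 2 the log2 changes of the 2 probe sets were alike, 0.28 and 0.29 with rosiglitazone and 0.29 and 0.36 with troglitazone, and the ratio does not say which of them followed the Rxra transcript.

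**Figure D2:**
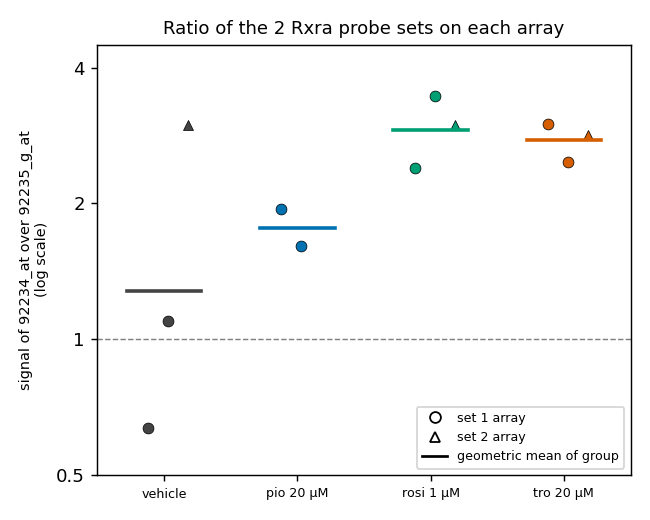
Ratio of the signals of the 2 Rxra probe sets, 92234_at over 92235_g_at (log scale), on each of the 11 arrays by group, with circles for set 1, triangles for set 2 and a bar at the geometric mean. The vehicle arrays span 0.635 to 2.99, and the vehicle array of set 2 sits among the rosiglitazone and troglitazone arrays.

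Rxrb, which encodes RXRβ, was higher with pioglitazone and lower with rosiglitazone in these arrays, and neither difference passed the test. The vehicle signals were 1371.1 and 822.4 in set 1 and 1155.3 in set 2. With pioglitazone they were 2826.1 and 2000.7, above all vehicle arrays. With rosiglitazone they were 701.3, 635.0 and, in set 2, 783.9, below all vehicle arrays. Between these, troglitazone gave 1045.7, 2583.9 and, in set 2, 1348.1, a wide spread that overlapped vehicle and pioglitazone. The log2 changes were 1.13 ± 0.35 with pioglitazone (2.19-fold; 95% interval 0.39 to 1.87; unadjusted p = 0.00553, limma adjusted p = 0.198), -0.63 ± 0.30 with rosiglitazone (95% interval -1.28 to 0.01; limma adjusted p = 0.487) and 0.49 ± 0.30 with troglitazone (limma adjusted p = 0.755). Within sets the rosiglitazone change was -0.67 in set 1 and -0.56 in set 2, and that of troglitazone 0.63 and 0.22. Troglitazone minus pioglitazone at the matched dose was -0.64 ± 0.35 (95% interval -1.38 to 0.11; limma adjusted p = 0.858), and it was -1.12 without troglitazone replicate 2, the array at 2583.9, -0.29 without troglitazone replicate 1 and -0.39 without pioglitazone replicate 1. The troglitazone change against vehicle was 0.0824 without its replicate 2 and 0.79 without its replicate 1.

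Rxrg, which encodes RXRγ, the form known chiefly from muscle and brain, differed by set and showed no change with drug beyond error. All 8 set 1 arrays lay above the floor, from 108.1 to 450.1 with a median of 295.85. All 3 set 2 arrays lay under it, at 59.2 with vehicle, 45.8 with rosiglitazone and 41.2 with troglitazone. Of all 11739 probe sets 102 (0.869%) were above the floor on every set 1 array and on no set 2 array. In set 1 the vehicle signals were 343.6 and 207.2, those of pioglitazone 256.7 and 335.0, those of rosiglitazone 450.1 and 108.1, and those of troglitazone 377.9 and 163.9, so every group overlapped. The log2 changes were 0.18 ± 0.73, -0.18 ± 0.63 and -0.07 ± 0.63 with pioglitazone, rosiglitazone and troglitazone (limma adjusted p = 0.978, 0.950 and 1). These signs are not fixed: the troglitazone value was 0.0437 after median centring. Of the 6 skeletal muscle markers measured, none passed with any drug in limma, and none reached an unadjusted p of 0.05.

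Over the 7 probe sets, 1 fell, none rose and 6 did not pass with each of the 3 drugs (limma adjusted p under 0.05). Of all probe sets tested 0.903% passed with pioglitazone (0.63% higher, 0.273% lower), 1.35% with rosiglitazone (0.784% and 0.571%) and 1.33% with troglitazone (0.775% and 0.554%). At an unadjusted p under 0.05 there were 2 of 7 with each drug, against 9.85% of all probe sets with pioglitazone, 10.5% with rosiglitazone and 8.32% with troglitazone. They were Pparg and Rxrb with pioglitazone, and Pparg and Rxra 92234_at with rosiglitazone and with troglitazone. The drug and vehicle arrays did not overlap for 3 of 7 probe sets with pioglitazone, 3 of 7 with rosiglitazone and 2 of 7 with troglitazone; over all probe sets the shares were 22.1%, 11.8% and 12.2%. For troglitazone against pioglitazone it was 2 of 7 (Ppard and Rxra 92234_at), against 19.3% of all probe sets. Overlap was judged on the signals before the floor was applied. For Ppard, all 3 troglitazone arrays and pioglitazone replicate 1 lay under the floor, so after flooring they tie. None of the 11739 probe sets passed the test of the set 2 effect minus the set 1 effect, which has 1 set 2 array a group (limma interaction; 437 for rosiglitazone and 288 for troglitazone at an unadjusted p under 0.05).

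**Figure D3:**
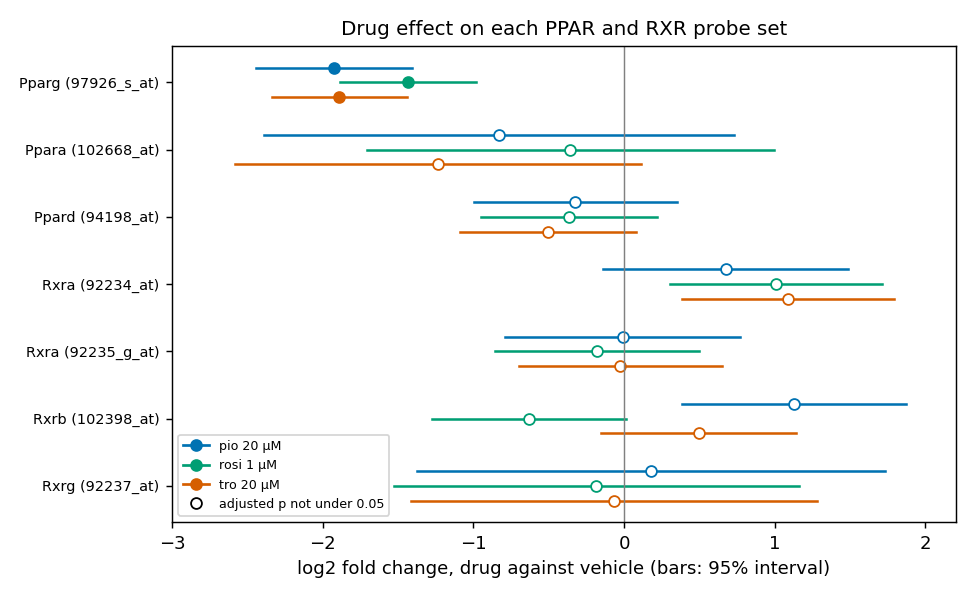
Log2 fold change of each of the 7 probe sets with each drug against vehicle (points) with its 95% interval (bars); filled points passed a limma adjusted p of 0.05. The 3 Pparg intervals, from -2.45 to -0.98 in all, lie clear of 0, and the Ppara and Rxrg intervals are the widest.

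The listed PPAR target genes that passed the test were all higher with the drugs, while Pparg was lower. Of 48 listed targets 36 were measured, and 10 rose with pioglitazone, 12 with rosiglitazone and 9 with troglitazone, and none fell (limma; 1, 1 and 2 were lower at an unadjusted p under 0.05). Of all 7962 genes measured, 0.728%, 0.98% and 0.967% rose and 0.327%, 0.628% and 0.666% fell with these drugs. The median log2 change of the targets was 0.36, 0.55 and 0.25, against -0.08, -0.01 and -0.03 for all genes. The list was chosen with earlier results of these data known, so its counts are not an independent test. Acaa1b, a peroxisomal thiolase, rose from 2079 ± 875 (SD, n = 3) to 7993 ± 1060 with pioglitazone (n = 2), 7903 ± 2684 with rosiglitazone (n = 3) and 7909 ± 2487 with troglitazone (n = 3), log2 changes of 2.29, 1.95 and 1.96. Plin2, a coat protein of lipid droplets, rose by 1.29, 0.99 and 1.57 on that scale, and Cidec, which promotes droplet fusion, by 1.43, 1.16 and 1.07. Fabp4 and Adipoq, standard fat cell targets, did not pass with any drug: Fabp4 gave 0.31, 0.59 and 0.31 and Adipoq -0.13, -0.02 and -0.48.

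The target counts depended on single arrays. Without vehicle replicate 1 or pioglitazone replicate 1 the pioglitazone count was 6, and without vehicle replicate 4, vehicle replicate 1 or rosiglitazone replicate 4 the rosiglitazone count was 7. Over 24 other ways of processing, the counts that rose ran from 0 to 12, 1 to 12 and 2 to 10, and up to 2 targets fell with troglitazone. The calls of Acaa1b, Plin2 and Cidec held with each drug in all 11 fits that left out 1 array.

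**Figure D4:**
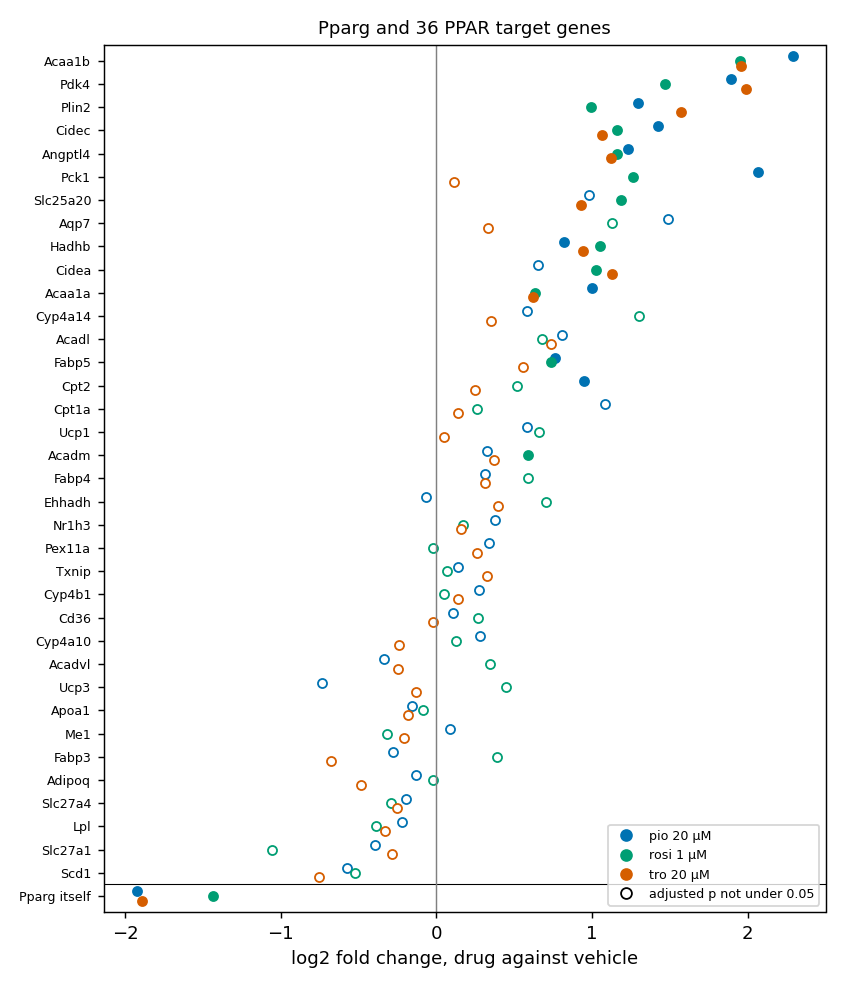
Log2 fold change of 36 PPAR target genes, ordered by their mean over the 3 drugs, and of Pparg (lowest line), with each drug against vehicle; filled points passed a limma adjusted p of 0.05. Every filled target point lies to the right of 0 and every Pparg point to the left, and Pck1 is at 2.07 with pioglitazone, 1.26 with rosiglitazone and 0.11 with troglitazone.

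Genes that act on PPARs or share RXRs were counted beside the shares of all genes. Of all 7962 genes measured, 0.728%, 0.98% and 0.967% rose with pioglitazone, rosiglitazone and troglitazone, and 0.327%, 0.628% and 0.666% fell (limma). At a limma unadjusted p under 0.05 the shares of all probe sets were 9.85%, 10.5% and 8.32%. At such shares a short list would hold few calls or none. None of the 14 measured coactivators, of 18 listed, passed with any drug (limma; 2, 3 and 1 reached an unadjusted p of 0.05 in either direction). Of 10 measured corepressors, of 12 listed, 2 reached a limma unadjusted p under 0.05 with each drug, 1 higher and 1 lower. With troglitazone 1 passed, and with pioglitazone or rosiglitazone none did (limma). That gene was Nrip1, which encodes RIP140, a corepressor of nuclear receptors. Nrip1 fell from 1446 ± 272 (SD, n = 3) to 609 ± 178 (n = 3), a log2 change of -1.27 (limma adjusted p = 0.0291), and the call held in 3 of 11 fits that left out 1 array. Its values with pioglitazone and rosiglitazone were -0.99 and -0.95 (limma adjusted p = 0.211 and 0.134). Of 13 other listed receptors that pair with RXR, 10 were tested, and Rara was on the array but too dim to test. None passed with any drug (limma, with 2, 2 and 0 at an unadjusted p under 0.05).

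Of 26 listed transcription factors known to act upstream of Pparg, 24 were measured. With pioglitazone 2 fell, with rosiglitazone 1 fell, and with troglitazone 1 rose and 1 fell (limma). Among all 7962 genes 0.327%, 0.628% and 0.666% fell with these drugs, and 0.967% rose with troglitazone. At a limma unadjusted p under 0.05 in either direction there were 9, 3 and 5 of 24, against 9.85%, 10.5% and 8.32% of all probe sets. Srebf1, whose product SREBP-1 drives lipid synthesis genes, fell from 6266 ± 579 (SD, n = 3) to 2932 ± 781 (n = 2), 2929 ± 91 (n = 3) and 3229 ± 122 (n = 3), log2 changes of -1.09, -1.09 and -0.95 (limma adjusted p = 0.00665, 0.00125 and 0.0032; 0.0525 for troglitazone without its replicate 4). Ddit3, the stress factor CHOP, rose with troglitazone, from 2908 ± 825 to 8299 ± 2637, a log2 change of 1.50 (limma adjusted p = 3.05e-05); its values with pioglitazone and rosiglitazone, 0.61 and 0.21, did not pass. Cebpd, an early adipogenic factor, fell with pioglitazone, from 666 ± 53 to 101 ± 106, whose 2 arrays read 26 and 176.2; the log2 change over the floor was -2.48 (limma adjusted p = 0.0138). That call was lost without any 1 of the vehicle arrays or without pioglitazone replicate 1. Cebpa and Cebpb, the C/EBP factors that sustain Pparg in fat cells, did not pass with any drug: Cebpa gave -0.10, 0.04 and -0.28 and Cebpb 0.44, 0.24 and 0.52.

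Of 10 measured regulators of the PPARγ protein, of 15 listed, only Cav1, the coat protein of caveolae, passed; with pioglitazone it fell by 1.19 on the log2 scale (limma adjusted p = 0.0277), a call that held in 2 of 11 fits that left out 1 array. With rosiglitazone and troglitazone none passed (limma). At a limma unadjusted p under 0.05, 2 of 10 were lower with each of the 3 drugs. The shares of all probe sets, in either direction, were 9.85%, 10.5% and 8.32% with pioglitazone, rosiglitazone and troglitazone. Of 16 listed genes of retinoid supply 11 were tested, and Rbp4 was on the array but too dim to test. At a limma unadjusted p under 0.05, 2, 1 and 2 were higher. Retsat, the enzyme retinol saturase, was among them, rose with each drug and alone passed (limma). It went from 2931 ± 1671 (SD, n = 3) to 6189 ± 412 (n = 2), 6085 ± 2041 (n = 3) and 6060 ± 1611 (n = 3), log2 changes of 1.51, 1.14 and 1.15 (limma adjusted p = 0.00153, 0.00349 and 0.00255), and these calls were lost when pioglitazone replicate 2 and rosiglitazone replicate 2 were both left out.

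Markers of other cell states are given beside Pparg. The summed signal of 8 measured preadipocyte or fibroblast markers was 6523 to 7810 on vehicle arrays, 3622 to 4102 with pioglitazone, 4410 to 5424 with rosiglitazone and 3126 to 4584 with troglitazone, so every treated array lay below every vehicle array. Of single probe sets tested, 1.97% showed that order. Most of the summed signal came from Col3a1, Col1a1 and Dlk1, with vehicle means of 1979, 1944 and 1780. Col3a1 and Col1a1, fibrillar collagens, fell with troglitazone by 1.29 and 1.27 on the log2 scale (limma adjusted p = 0.00459 and 0.024; the calls held in 9 and 6 of 11 fits that left out 1 array). None of the 8 passed with the other drugs (limma). At a limma unadjusted p under 0.05, 5 of 8 were lower with pioglitazone and 4 with rosiglitazone. The shares of all probe sets, in either direction, were 9.85% and 10.5%. Not every marker was lower with every drug: Pdgfra gave 0.30 with troglitazone, and Gata2 0.54 and Vim 0.0178 with rosiglitazone. The summed signal of the 8 adipocyte markers was 83132 to 103192 with vehicle, 86907 to 104026 with pioglitazone, 87029 to 116510 with rosiglitazone and 70926 to 93534 with troglitazone, ranges that overlap. Among them Cidec rose with each drug and Retn, the hormone resistin, fell by 1.68 with troglitazone (limma adjusted p = 0.000133) and by 0.84 with rosiglitazone (0.0394, held in 3 of 11 fits); its pioglitazone value, -0.89, did not pass (0.0782). Of 8 listed macrophage markers 5 were tested, while Itgam, Lyz2 and Aif1 were on the array but too dim to test. Of the tested ones, Adgre1 and Ptprc were above the floor on 3 of 11 arrays and Cd68 on 7. Csf1r and Cd14 were above it on all 11. Cd14 fell by 1.49 with troglitazone (limma adjusted p = 0.0246, held in 5 of 11 fits), and no other macrophage marker passed. Csf1r gave 0.41, 0.13 and 0.0551 with pioglitazone, rosiglitazone and troglitazone, and Cd68 gave -0.90, 0.32 and 0.33. The part of any marker in the Pparg values was not tested. In whole-culture RNA, fewer cells of a type and less RNA per cell cannot be told apart.

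The probe sets whose signals went most nearly with Pparg over the 11 arrays, after the mean of each set was taken off, were those of Gsn (r = 0.954), Fn1 (0.953), Hp (0.953), Ralgds (0.950) and S100a6 (0.946). They encode gelsolin, fibronectin, haptoglobin, an exchange factor for Ral and a calcium-binding protein. Gsn, at 3494 ± 746 with vehicle (SD, n = 3), was 875 ± 100 (n = 2), 924 ± 61 (n = 3) and 987 ± 55 (n = 3) with pioglitazone, rosiglitazone and troglitazone. The most opposite of the 7365 probe sets compared were those of Cbr3, a carbonyl reductase (r = -0.981), Plin2 (-0.972) and Esrra, an orphan nuclear receptor of energy metabolism (-0.972). Esrra was 1994 ± 109 with vehicle and 3962 ± 318, 3505 ± 162 and 3485 ± 105 with the drugs, log2 changes of 0.96, 0.81 and 0.81 (limma adjusted p = 0.00634, 0.00467 and 0.00406). Without taking off set means the coefficients of Fn1 and Cbr3 were 0.808 and -0.726, and the order changed. S100a6 then ranked 1st, Gsn 7th, Hp 32nd, Ralgds 33rd and Fn1 73rd. From the opposite end Plin2 ranked 1st, Esrra 2nd and Cbr3 110th. Of the other 6 probe sets of the family, 5 were bright enough to compare: Rxra 92234_at had r = -0.70, Ppara 0.53, Rxrb -0.34, Rxrg 0.06 and Rxra 92235_g_at 0.03. These coefficients describe 11 arrays that share treatments and controls.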

How the data were processed

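Per the labels, RNA of 3T3-L1 cells was hybridised to one-colour arrays. The values deposited by the authors are linear signal intensities per probe set, from 0.4 upward, already scaled by them; the sources used here name neither the array software nor the probe summary. Values under 73.7 (the 25th percentile) were raised to it and base 2 logarithms taken. Of 12422 probe sets, 66 controls aside, the 11739 above the floor on at least 2 arrays were tested with limma 3.58.1 in R 4.3.3 (lmFit and eBayes with an intensity trend; group and set as terms, 6 residual degrees of freedom) with Benjamini-Hochberg adjustment. Set differences used 1 term per group and set (4 residual degrees of freedom). Folds and log2 changes come from the fit, while means and SDs pool the arrays of a group over both sets, so the 2 need not match. The method was tested on simulated data. Precision is limited by the number of arrays.

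All probe sets of the 6 genes are reported. A listed gene is represented by its brightest tested probe set. Up to 3 genes per list with the smallest p among those that passed are named. Some other genes (Fabp4, Adipoq, Lpl, Pck1, Cebpa, Cebpb, Dlk1, Pdgfra, Gata2, Vim, Adgre1, Ptprc, Csf1r, Cd68) were named after their values were seen. Genes and lists were chosen with earlier results of these data known. Likeness is Pearson r over probe sets above the floor on at least 8 arrays. Samples that share a replicate number did not deviate together in set 1. There, replicate 1 minus replicate 2 correlated between groups with r from -0.0444 to 0.00994. Number 4 is set 2, already a term (deviations from group means had r from 0.289 to 0.362). Promoter windows of all 6 genes matched by symbol in RefSeq and were searched with Python 3.11.15. Alternatives covered scaling, floor, filter, design and single arrays left out. Where genes are counted, measured means tested. Listed genes without a probe set of their own, or with none bright enough to test, were not analysed here.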

Additional observations from a re-analysis of the deposited data

Results flagged for a closer look

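The Rxra probe set 92235_g_at lay on opposite sides of vehicle in the 2 sets with rosiglitazone, as did 21.6% of all 11739 probe sets tested, counted where both set 1 arrays lay on 1 side of the set 1 vehicle mean and the set 2 array on the other side of its vehicle array. In set 1 both rosiglitazone arrays (466.6 and 501.2) lay below both vehicle arrays (543.6 and 761.6), a mean log2 difference of -0.41. In set 2 the single rosiglitazone array (381.3) lay above the single vehicle array (312.7), a difference of 0.29. The effect in set 2 minus that in set 1 was 0.70 ± 0.64 on the log2 scale, which was not beyond error (limma interaction, unadjusted p = 0.307, adjusted p = 1).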

How the results depend on the processing

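Pparg kept its direction against vehicle under all 24 alternatives with each drug, from -2.13 to -1.74 with pioglitazone, -1.49 to -1.35 with rosiglitazone and -1.96 to -1.76 with troglitazone. The troglitazone call held under all of them (limma adjusted p from 9.43e-05 to 0.0356). The pioglitazone call was lost in a fit of only the groups compared (-1.91, adjusted p = 0.408), which has fewer arrays. The rosiglitazone call was lost without the set term (-1.43, adjusted p = 0.0503), in set 1 alone (-1.42, 0.119) and without the intensity trend (-1.43, 0.0713). With 1 array left out the ranges were -2.0 to -1.85, -1.49 to -1.40 and -1.96 to -1.85, and all calls held. Troglitazone minus pioglitazone for Pparg was -0.0361 after median centring and ran from -0.0412 to 0.11 with 1 array left out.

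The numbers of probe sets called moved more. From 106 the pioglitazone count went to 160 after median centring, 25 without the set term, 23 in set 1 alone, 6 without the trend and 0 in a fit of only the groups compared (1063 at an unadjusted p under 0.05). From 159 the rosiglitazone count went to 99 with no filter, 40 without the set term, 19 in set 1, 6 without the trend, 18 with only the groups compared and 58 without pioglitazone replicate 2 and rosiglitazone replicate 2. From 156 the troglitazone count went to 89 with no filter, 55 without the set term, 37 in set 1, 19 without the trend and 40 with only the groups compared. From 4 the count for troglitazone against pioglitazone went to 1 without the set term, to 0 in set 1, without the trend and with only the groups compared (629, 657 and 812 at an unadjusted p under 0.05), and to 25 without those 2 arrays. With 1 array left out the counts ran from 43 to 111, 74 to 158, 72 to 162 and 1 to 7. The cause was not tested. Some of these fits had fewer arrays, but those without the set term or without the trend left out no array. Median centring moved the median of all probe sets from -0.08 to 0.11 with pioglitazone and from -0.03 to 0.08 with troglitazone.

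Small changes turned sign. Rxra 92235_g_at with pioglitazone was 0.0936 after quantile normalisation, 0.17 after median centring and 0.20 without the set term; with troglitazone it was 0.00186 and 0.0872 under the first of these and the second. Its troglitazone minus pioglitazone value was 0.0343 with the beta-actin ratio as a covariate and 0.0537 without the 2 arrays. Rxrg with pioglitazone was -0.00248 with that covariate and -0.11 without the 2 arrays; with rosiglitazone it was 0.13 with the floor at the 50th percentile and 0.41 without the 2 arrays; with troglitazone it was 0.0437 after median centring and 0.0458 with that floor; for troglitazone minus pioglitazone it was 0.00157 with the covariate and 0.0452 without the 2 arrays. With the floor at the 10th percentile the set difference for Rxrg was -0.0957 for rosiglitazone and -0.42 for troglitazone. With 1 array left out, Ppara for troglitazone minus pioglitazone ran from -1.0 to 0.20; Rxra 92235_g_at from -0.15 to 0.23, -0.39 to 0.0307, -0.24 to 0.19 and, between those drugs, -0.14 to 0.18; Rxrg from -0.0277 to 0.44, -0.72 to 0.41, -0.40 to 0.26 and -0.63 to 0.13. None of these changes had passed the test.

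With the replicate number as a block the counts were 114, 162, 144 and 4, and the Pparg changes stayed called at -1.93, -1.43 and -1.89 (limma adjusted p = 0.00172, 0.00327 and 0.000256). The block changed no call among the 7 probe sets, and the samples share only a number.

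Limits are the 2 pioglitazone arrays, the single set 2 array of vehicle, rosiglitazone and troglitazone, and the floor, which hides falls in Ppard, in Rxrg of set 2 and in part of Ppara.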
